A study of Homo sapiens with 12 samples.

Results

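MicroRNAs (miRNAs) were compared between extracellular vesicles (EVs) and the cells that released them in a miR-122 knockout line of MDA-MB-231, a human triple-negative breast cancer cell line. The comparison took the 4 small-RNA libraries labelled as knockout, 2 of EVs and 2 of cells, out of 12 libraries in the series, and every row of the deposited miRNA count table entered it. That table lists 2588 mature miRNAs, of which 574 had enough counts to be tested. In the knockout line, miR-122 was targeted by CRISPR-Cas9 with 2 guide RNAs and the edit was checked by Sanger sequencing. The labels do not say whether the line is 1 clone or a pool. The other 8 libraries are EVs and cells, 2 of each, from a control line carrying an empty shRNA vector and from a line with a lentiviral shRNA against RAB27A, a small GTPase that acts in vesicle release. The control line thus differs from the knockout line in its vector as well as in miR-122, and these cannot be told apart. All lines grew in DMEM with 10% fetal bovine serum. EVs came from medium conditioned for 24 h without serum but with 1% bovine serum albumin, cleared by lower-speed spins, pelleted by ultracentrifugation and washed. Cells were collected at the same time, and their RNA was taken up in TRIZOL, that of EVs in TRIZOL LS. The libraries were made from RNA with a 5′ monophosphate and size selected to 17 to 52 nucleotides. Nothing in the labels says that the 2 libraries of a group came from separate cultures, so all p-values measure the spread between these libraries only, which may be technical.

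A miRNA gene is transcribed into a hairpin that is cut to a short duplex, and 1 arm of the duplex is loaded into an Argonaute protein while the other is mostly degraded. The loaded arm finds its target mRNAs through the seed, bases 2 to 8 from its 5′ end, so miRNAs with a shared seed form a family. Many miRNAs lie in clusters that are transcribed as 1 RNA, and cells also release miRNAs inside or bound to vesicles. Short sequence motifs, among them GGAG and GGCU, have been linked to RNA-binding proteins that load miRNAs into vesicles. miR-122, made in hepatocytes, is known for its part in liver lipid metabolism and hepatitis C, and breast cancer cells have been described to release it in vesicles.

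The sequences below are those on which the results turn. They are RefSeq mature sequences (GRCh38.p14), written 5′ to 3′ with the seed in capitals. RefSeq held a sequence for 506 of the 574 tested miRNAs. The first set are hairpin miRNAs that stood far above the cell level in knockout EVs, and most of them are poor in G and C.
miR-590-3p: uAAUUUUAuguauaagcuagu
miR-374b-3p: cUUAGCAGguuguauuaucauu
miR-335-3p: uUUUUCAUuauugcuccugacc
miR-454-3p: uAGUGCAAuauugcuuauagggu
miR-664a-3p: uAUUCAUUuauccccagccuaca
The second set also stood far above the cell level in EVs. These are 17 to 20 bases long, and miR-4516 and miR-4488 are rich in G and C.
miR-4516: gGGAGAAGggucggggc
miR-4488: aGGGGGCGggcuccggcg
miR-4485-3p: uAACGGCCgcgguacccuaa
miR-1246: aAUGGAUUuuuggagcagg
The third set are 6 of the 12 leading miRNAs lower in EVs.
miR-4521: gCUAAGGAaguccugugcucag
miR-326: cCUCUGGGcccuuccuccag
miR-210-3p: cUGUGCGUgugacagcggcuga
miR-138-5p: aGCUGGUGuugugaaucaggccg
miR-193b-3p: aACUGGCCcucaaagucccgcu
miR-874-3p: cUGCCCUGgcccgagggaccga
The let-7 guides share 1 seed and differ by a few bases outside it. Counted from 1 at the 5′ end of let-7a-5p, the changes are G12A in let-7f-5p, G12U and U18C in let-7g-5p, and A17G and A19G in let-7b-5p.
let-7a-5p: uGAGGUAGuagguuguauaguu
let-7f-5p: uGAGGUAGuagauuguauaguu
let-7g-5p: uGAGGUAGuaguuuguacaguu
let-7b-5p: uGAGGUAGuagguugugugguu
let-7i-5p: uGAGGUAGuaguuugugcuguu
The miR-17-92 cluster makes the next set from 1 transcript. miR-130b-3p follows for its seed, which is that of miR-454-3p above.
miR-20a-5p: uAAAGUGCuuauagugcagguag
miR-92a-3p: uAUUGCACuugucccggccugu
miR-19b-3p: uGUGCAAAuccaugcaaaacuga
miR-130b-3p: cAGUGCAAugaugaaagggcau
The last set are arms of the miR-16 and miR-27b hairpins, some of which went opposite ways between EVs and cells.
miR-16-5p: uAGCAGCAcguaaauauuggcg
miR-16-2-3p: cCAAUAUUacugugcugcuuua
miR-16-1-3p: cCAGUAUUaacugugcugcuga
miR-27b-3p: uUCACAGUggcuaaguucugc
miR-27b-5p: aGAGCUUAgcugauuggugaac

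The knocked-out miRNA itself was read first. miR-122-5p had 0 counts in both cell libraries, which allows up to 0.15 CPM (counts scaled to a common library total), taking 3 counts over the group's total as the limit. The EV libraries held 4 and 3 counts, 1.01 CPM over the pair. This is at least 6.74-fold above the cells (adjusted p = 0.00021). The other arm, miR-122-3p, and both arms of miR-3591, which is annotated on the opposite strand, had no count in the 4 knockout libraries. Whether the change of miR-122-5p from cells to EVs differed from that of the control line could not be shown (adjusted p = 0.942). Mean levels in the control line were 0.392 CPM in cells and 291 CPM in EVs.

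The knockout cell libraries held 10169004 and 9836680 counts and the knockout EV libraries 3754673 and 3166760, within a range of 164656 to 11840597 over the series. Replicates agreed at r = 0.994 (log2 CPM, across miRNAs) in each of the 2 groups. Beyond counting error, the knockout cell pair differed most. Its chi-square per degree of freedom, which grows with depth, was 211, against 8.75 to 31.8 in the other groups. Control cells, of like depth, had 31.8. The p-values rest on a spread shared by all groups and may understate that of the knockout cell pair. The cell libraries stood apart from the other 10 in base composition. The rank correlation across miRNAs between GC content and a library's deviation from the mean of all 12 was 0.401 and 0.386 in the knockout cells, -0.036 and -0.030 in the knockout EVs, and between -0.231 and 0.080 elsewhere. One miRNA, miR-100-5p, took 49.5% and 45.6% of counts in the cells against 34.9% and 36.0% in the EVs. Since the 2 cell libraries share this composition, no result below can be given without it. The values of a fit with a GC correction, which uses the 506 miRNAs with a sequence, are given beside each named change, family count or difference between lines where it ends or makes a call or moves the value by over 1.5 times. Fold changes are log2 values of EVs over cells from edgeR's quasi-likelihood test, given ± SE and scaled by the TMM method, with Benjamini-Hochberg adjusted p over all 574 miRNAs. CPM values are per library total, without that scaling.

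In the knockout line, 339 of 574 miRNAs (59.1%) differed between EVs and cells at an adjusted p under 0.05. Of these, 191 (33.3% of those tested) were higher in EVs and 148 (25.8%) were lower. Changes of 4-fold or more were mostly upward, with 87 miRNAs higher and 17 lower. In CPM, without TMM scaling, the EV libraries lay above both cell libraries for 273 miRNAs (47.6%) and below both for 158 (27.5%). Leaving out TMM raises the EV side, as the total-count values below show. Scaling also moves the split of the calls. Higher miRNAs made up 56.3% of the calls. With total counts in place of TMM the median of all miRNAs rose by 0.20 and this share was 66.1%, and with RLE size factors the median moved by -0.10 and the share was 51.4%. Precision follows the level. Among the 192 miRNAs from 38.2 CPM upward, 77.6% differed, with a median SE of 0.137, while 36.1% of the 191 lowest did, with a median SE of 0.74. The plot of change against level shows the widest spread at low levels and smaller changes among the most abundant miRNAs.

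**Figure D1:**
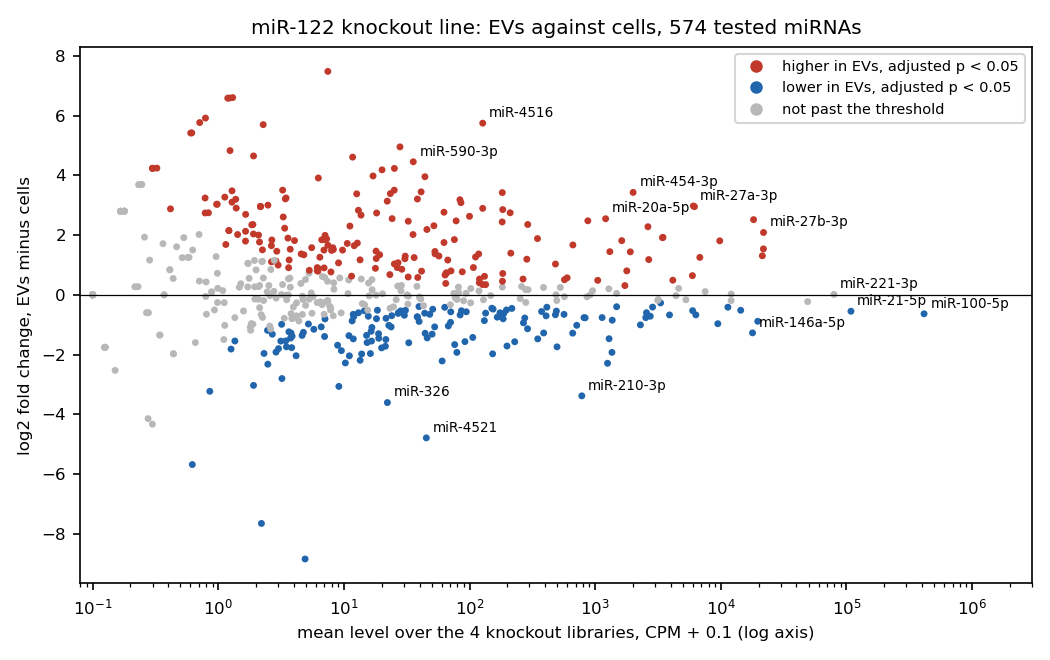
The log2 fold change from cells to EVs in the knockout line (vertical) is plotted against the mean level over its 4 libraries in CPM + 0.1 (log axis), 1 point for each of 574 tested miRNAs. Red points were higher in EVs, blue points lower, at adjusted p under 0.05. The most abundant miRNA, miR-100-5p, sits at -0.63, and miR-4516 at 5.74.

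The leading miRNAs are the 12 with the largest change in each direction, among those that passed the test, did not overlap between EV and cell libraries and lay above the median level of 10.8 CPM. Hairpin miRNAs hosted in introns or long noncoding RNAs are found in both groups. In the group lower in EVs they include miR-326, miR-210-3p, miR-193b-3p, miR-769-3p and miR-874-3p, so such a host is no mark of the group higher in EVs. miR-454-3p, from an intron of SKA2 (GRCh38, chromosome 17, 59137787 to 59137809, minus strand), was the most abundant leading miRNA higher in EVs. It read 289 and 309.9 CPM in cells and 3700.2 and 3719.9 CPM in EVs, a change of 3.43 ± 0.12 (adjusted p = 2.78e-29). miR-590-3p, from an intron of EIF4H (chromosome 7, 74191253 to 74191273), read 1.57 and 3.86 CPM in cells and 81.8 and 54.9 CPM in EVs (4.45 ± 0.26). miR-335-3p lies in an intron of MEST, an imprinted gene, on chromosome 7 (130496162 to 130496183). It read 5.02 and 7.12 CPM in cells and 85.5 and 66.6 CPM in EVs (3.45 ± 0.19). For these 3, every EV library was more than 9 times above every cell library. miR-664a-3p overlaps the small nucleolar RNA SNORA36B, within an intron of RAB3GAP2. It stood at 2.75 and 4.37 CPM in cells and 42.9 and 50.2 CPM in EVs (3.50 ± 0.24).

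The miR-374 hairpins rose together. miR-374b lies in an intron of FTX, a noncoding RNA of the X-inactivation region (X, 74218557 to 74218578, minus strand). Its 3p arm read 2.16 and 1.42 CPM in cells and 35.4 and 41.1 CPM in EVs (4.18 ± 0.26). miR-374a-5p read 27.5 and 26.9 CPM in cells and 319 and 355 CPM in EVs (3.42 ± 0.15). All 6 tested members of the miR-374, miR-545 and miR-421 list rose in EVs, with a median of 3.05 against 0.04 over all tested miRNAs. These included miR-374a-3p (2.85), miR-374b-5p (2.89) and miR-421 (2.44). The 5 of them with a sequence stayed called after GC correction, at a median of 1.99, with miR-374a-3p at 1.24 and miR-374b-5p at 1.73.

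A further set of the leading miRNAs belongs to a list of entries whose sequences overlap other RNA classes or repeats. miR-4516 had the largest change, from 3.84 and 4.27 CPM in cells to 184 and 316 CPM in EVs (5.74 ± 0.24, adjusted p = 3.59e-21). miR-4488 went from 1.18 and 1.83 to 50.9 and 57.5 CPM (4.95 ± 0.26). miR-1246, whose sequence matches part of U2 small nuclear RNA, went from 4.82 and 4.47 to 82.6 and 84.3 CPM (3.95 ± 0.20). For each of the 3, both EV libraries lay more than 10 times above both cell libraries. miR-4485-3p lies in the exon of MTRNR2L8, a nuclear copy of mitochondrial ribosomal RNA, and went from 2.26 and 2.13 to 52.2 and 43.9 CPM (4.23 ± 0.25). miR-619-5p went from 1.77 and 1.73 to 32.8 and 31.6 CPM (3.98 ± 0.27). Over the whole list of 23 tested entries that overlap other RNAs, 13 were higher in EVs and 2 lower, with a median of 2.04. After GC correction 9 of 17 were higher and 2 lower, with a median of 0.63, and without the first EV library 1 was lower. Reads of such entries may come from the other RNA and cannot be told apart from it in a count table. miR-451a, an erythroid miRNA cut by AGO2 in place of Dicer, closes the group at 0.197 and 1.42 CPM in cells and 37.0 and 7.89 CPM in EVs (4.61 ± 0.93, adjusted p = 0.00412). Its 2 EV libraries differ more than those of any other leading miRNA higher in EVs.

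Fewer miRNAs were far lower in EVs. miR-4521 had the largest fall among the leading miRNAs. It read 76.8 and 96.9 CPM in cells and 4.53 and 2.53 CPM in EVs (-4.78 ± 0.24, adjusted p = 1.55e-23). miR-210-3p, the main miRNA induced by hypoxia through HIF, is hosted by MIR210HG (chromosome 11, 568112 to 568133, minus strand). It read 1169 and 1652 CPM in cells and 137 and 172 CPM in EVs (-3.38 ± 0.16). Its other arm, miR-210-5p, fell with it, from 14.4 and 28.5 to 7.72 and 4.42 CPM (-1.98 ± 0.30). miR-326, from an intron of ARRB1, read 24.0 and 56.9 CPM in cells and 4.26 and 3.16 CPM in EVs (-3.60 ± 0.34). miR-138-5p, known for roles in neurons and in cell migration, read 1732 and 2336 CPM in cells and 432 and 519 CPM in EVs (-2.29 ± 0.13). miR-193b-3p, described as a suppressor of breast cancer invasion, read 64.0 and 130.0 CPM in cells and 20.8 and 26.8 CPM in EVs (-2.21 ± 0.23). For miR-326 and miR-193b-3p the 2 cell libraries lay further apart than the EV libraries, and still above both of them. miR-874-3p, from an intron of KLHL3, fell by 1.97 ± 0.16, from 244 and 227 to 76.4 and 62.5 CPM. miR-19b-3p of the miR-17-92 cluster fell by 1.92 ± 0.13, from 1639 and 2546 to 586 and 669 CPM. The remaining 4, miR-769-3p (-2.19), miR-328-3p (-2.04), miR-7706 (-1.96) and let-7a-2-3p (-1.93), lay between 17.1 and 121.95 CPM in cells.

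**Figure D2:**
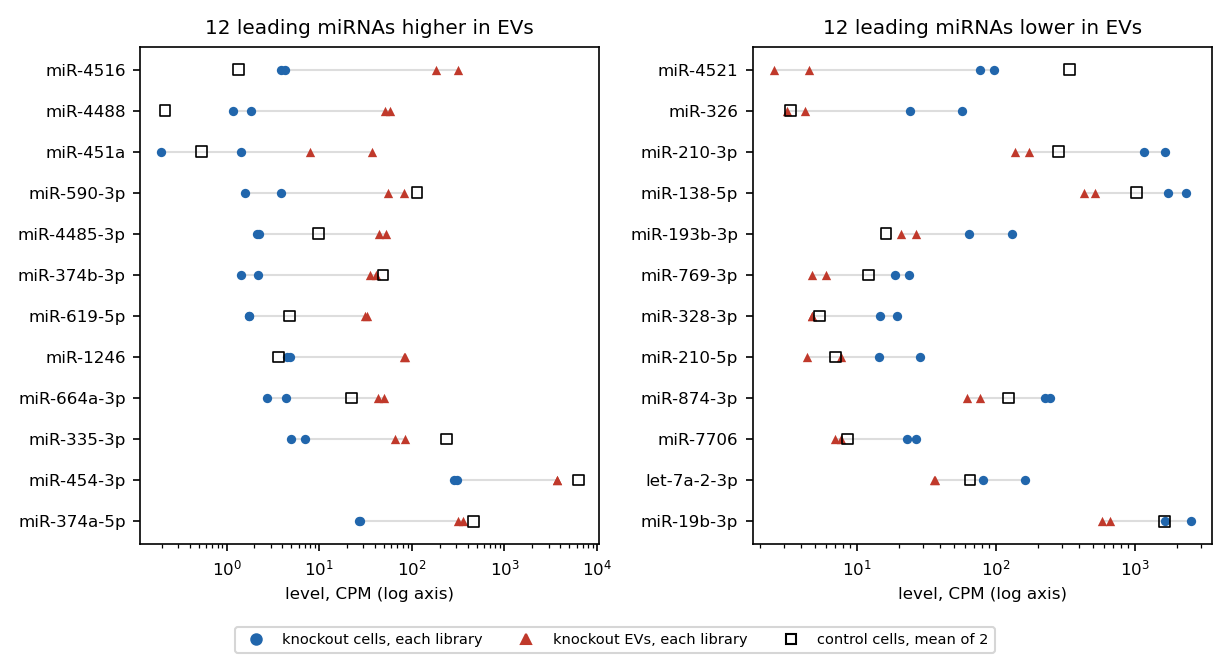
Levels in CPM (log axis) of the 12 leading miRNAs higher in EVs (left) and the 12 lower (right) in each knockout cell library (circles), each knockout EV library (triangles) and, as the mean of 2, in control cells (squares). For miR-454-3p the control cells, at 6306 CPM, lie with the knockout EVs (3710.0 CPM) and not with the knockout cells (299 CPM).

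The 2 leading groups differ in base composition. The median GC content was 39.1% (19.05% to 88.9%, 9 with a sequence) in the group higher in EVs and 61.7% (39.1% to 77.3%, 12 with a sequence) in the group lower. After GC correction all 9 of the first and all 12 of the second passed the test. Their medians moved from 4.18 to 3.03 and from -2.11 to -1.90, and miR-590-3p from 4.45 to 2.65.

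The 4 most abundant miRNAs changed by less than 2-fold. miR-100-5p, which targets the mTOR pathway, fell by 0.63 ± 0.11. miR-21-5p, an oncogenic miRNA that represses PDCD4, read 106477 and 137326 CPM in cells and 90859 and 99973 CPM in EVs (-0.55 ± 0.11, and -1.44 after GC correction). miR-221-3p, a repressor of the cell-cycle inhibitor p27, gave 0.02 ± 0.11 and did not pass the test (adjusted p = 0.96). Its sign turned with the scaling, to -0.09 with RLE size factors and -0.20 after GC correction, and it was called with total counts at 0.23. let-7i-5p, at 49303 CPM in cells and 48926 CPM in EVs, missed the threshold (-0.23 ± 0.11, adjusted p = 0.0831) and was called after GC correction at -0.83, with RLE size factors at -0.34, with no filter at -0.62 and without the second cell library at -0.42. miR-125b-5p (-0.88) and miR-30a-5p (-0.52, and -0.86 after GC correction) also fell. miR-146a-5p, an NF-kappaB target that dampens TRAF6 and IRAK1 signalling, read 23567 and 24854 CPM in cells and 11678 and 11458 CPM in EVs (-1.27 ± 0.11). Higher in EVs among the abundant miRNAs were miR-27b-3p, let-7f-5p, let-7a-5p and miR-26a-5p. miR-27b-3p rose from 6593 and 8324 CPM to 34498 and 38088 CPM (2.09 ± 0.11).

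let-7, the family that represses RAS, HMGA2 and LIN28, shared its seed but not its size of change. Of 9 tested guides 7 were higher in EVs and 1 was lower, with a median of 1.31. let-7f-5p rose most, from 4344 and 5289 CPM in cells to 31998 and 31311 CPM in EVs (2.52 ± 0.12, and 1.35 after GC correction). let-7a-5p, 1 base away from it, rose by 1.31 ± 0.12 (0.41 after GC correction). let-7g-5p rose by 1.81 and miR-98-5p by 2.48, and after GC correction by 0.91 and 1.31. let-7b-5p went the other way, from 2417 and 3416 CPM in cells to 1768 and 1561 CPM in EVs (-1.004 ± 0.12). With the GC correction the family stood at 5 higher and 2 lower, with a median of 0.41, and without the second cell library or with RLE size factors 2 were lower. The summed level of the 9 guides was 75180 and 72324 CPM in cells and 139647 and 129313 CPM in EVs.

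The guides of the miR-26 and miR-27 families rose in EVs. Of 5 tested members of the miR-26 list, which includes regulators of EZH2, 4 were higher and none lower, with a median of 2.30. miR-26a-5p read 10452 and 9569 CPM in cells and 33527 and 33827 CPM in EVs (1.54 ± 0.12, and 0.94 after GC correction). miR-26b-5p, with the same seed, went from 1224 and 1260.5 to 11379.7 and 10816 CPM (2.95 ± 0.13, and 1.86). The arm miR-26a-2-3p rose by 3.21 (2.04). In the list of miR-23, miR-24 and miR-27, the 11 tested members split into 5 higher and 4 lower. miR-27a-3p went from 961 and 1470.4 to 10351 and 11406 CPM (2.97 ± 0.13), and miR-23b-3p from 3153 and 4146 to 9786 and 10145 CPM (1.25 ± 0.12). All 4 that fell were 5p arms, among them miR-27b-5p (-1.47) and miR-27a-5p (-0.67).

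Members of 1 family went opposite ways elsewhere. The miR-130, miR-301 and miR-454 list had 6 of 8 tested members higher and 2 lower. After GC correction 3 of 7 were higher and 2 lower. Without the second EV library 3 of 8 were higher and 2 lower, without the first EV library 5 and 1, and without the first cell library 4 and 1. Over all tested miRNAs 33.3% were higher and 25.8% lower. miR-130b-3p has the seed of miR-454-3p and fell by 0.57 ± 0.15 (adjusted p = 0.00101, and -0.91 after GC correction), from 98.4 and 113 to 83.1 and 81.5 CPM. In the miR-30 list 3 of 11 rose and 6 fell. miR-30c-5p rose by 1.44 and miR-30e-5p, with the same seed, fell by 0.67 (-1.27 after GC correction). In the miR-148 and miR-152 list, known for repression of DNMT1, 3 of 5 rose and 2 fell (2 and 1 of 4 after GC correction). miR-148a-3p rose by 1.03 (0.43 after GC correction) and miR-152-3p fell by 0.54. The miR-181 list had 2 of 9 higher and 6 lower, with miR-181a-5p at -0.67. None of the 9 was higher after GC correction, with 7 lower, or without the second EV library, and 1 was higher without the first cell library or with RLE size factors. The miR-99, miR-100 and miR-125 list had 1 of 11 higher and 5 lower, and none higher and 3 lower after GC correction. miR-21-3p fell with its other arm (-1.28). For miR-221 and miR-222, 1 of 4 was called, miR-222-5p at 2.75, against 2 without the first cell library and 3 with total counts.

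The miR-15 and miR-16 list, repressors of BCL2 and of cell-cycle genes, had 7 of 11 tested members higher and 2 lower (4 lower after GC correction, 1 without the second EV library). miR-16-5p read 672 and 935 CPM in cells and 4181 and 4731 CPM in EVs (2.28 ± 0.12), and miR-15b-5p rose by 1.19 (0.61 after GC correction). The miR-200 family is known to hold back the mesenchymal state by repressing ZEB1 and ZEB2. Its 9 entries, tested or not, summed to 133 and 145 CPM in cells and 334 and 329 CPM in EVs. Of the 6 tested, 5 were higher in EVs and none lower, and 2 were called after GC correction. miR-200c-3p went from 5.90 and 6.51 to 42.6 and 41.4 CPM (2.55 ± 0.21). miR-200b-3p rose by 0.91, and its GC-corrected value was 0.02. The miR-10 and miR-196 list had 3 of 5 higher (1 of 4 after GC correction), and the miR-183 cluster 3 of 5 lower (5 of 5). The miR-29 list had 2 of 7 higher and 2 lower, with a median of -0.19. After GC correction it had none higher and 4 lower, with a median of -0.68, and with total counts 3 higher and 1 lower, with a median of 0.01. Without the first cell library it had 1 higher and 3 lower, without the second 3 and 1, without the first EV library 2 and 1, and without the second 1 and 1. The miR-500 cluster had 1 of 14 higher and 3 lower, the miR-146 family with miR-155 1 of 4 in each direction, and the miR-320 family with miR-484 1 of 6 in each direction. After GC correction these stood at none higher and 3 lower of 13, none and 2 of 4, and 1 and none of 5. With total counts the miR-500 and miR-320 lists each had 3 higher and none lower, and without the second cell library the miR-146 list had 2 higher. miR-320a fell by 0.41 and gave -0.21 with total counts, which did not pass the test. The miR-548 family, a large primate family derived from repeats, had 11 of 19 entries higher and none lower, with a median of 1.52. Some of its entries have identical counts, and 7 distinct ones of 14 were higher. With the GC correction 4 of 10 were higher and 2 lower, with a median of 0.23. In the plot of families, the list medians of let-7, miR-26 and miR-374 lie to the right of the median of all tested miRNAs, while let-7b-5p, let-7i-5p and miR-26b-3p lie to its left.

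**Figure D3:**
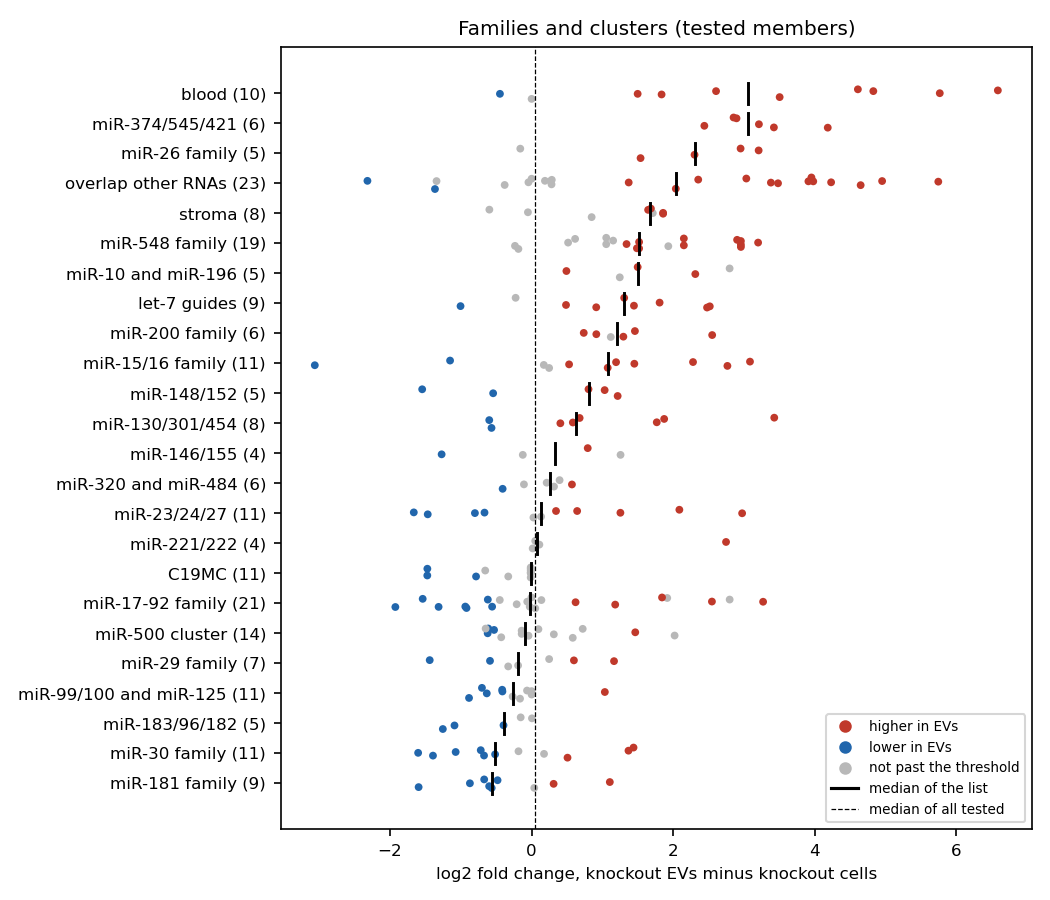
Log2 fold change from cells to EVs in the knockout line (horizontal) for the tested members of each list with 4 or more of them, 1 point per miRNA, red higher and blue lower in EVs at adjusted p under 0.05. Black bars mark list medians and the dashed line the median of all tested miRNAs. The chromosome 14q32 list, most of whose members lay near 0 counts, is left out, and the miR-374 list has its median at 3.05.

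The miR-17-92 cluster makes 6 hairpins from 1 transcript, MIR17HG on chromosome 13, and its products parted. Of 11 tested mature miRNAs of the cluster, 4 were higher in EVs and 4 lower. miR-20a-5p went from 281 and 347 CPM in cells to 2079.5 and 2135 CPM in EVs (2.55 ± 0.12). miR-92a-3p, which is also made from the X chromosome, went from 1292 and 1674 to 3941 and 3769.8 CPM (1.18 ± 0.11). miR-19b-3p, shown among the leading miRNAs and also made from the X chromosome, and miR-19a-3p (-0.94, and -1.95 after GC correction) fell. Both share the seed GUGCAAA. Over the wider family, including paralogous clusters, 5 of 21 were higher and 7 lower, with a median of -0.03 that turned to 0.18 with total counts. Of 14 clusters with at least 3 hairpins within steps of 10 kb on 1 strand, 5 had calls in both directions, 4 were higher only and 3 lower only, and 2 had no call. Among the 5 is the X-chromosome cluster of miR-106a and miR-363. Its only calls are miR-92a-3p and miR-19b-3p, entries that also count for miR-17-92. The cluster of let-7a-1, let-7f-1 and let-7d on chromosome 9 was among those higher only, with 5 of 6 mature miRNAs called.

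Arms of 1 hairpin can be compared, since they come from the same precursor. Both arms were tested for 172 hairpin pairs. Both rose in 28, both fell in 15 and they were called in opposite directions in 28. The less abundant arm had the higher fold change in 81 of the 172, and the 2 arms' fold changes correlated at r = 0.33 across hairpins, which are not independent replicates. Of 153 pairs with both sequences, the arm with less GC had the higher fold change in 71, and 11 pairs had equal GC. The miR-16 hairpins show the spread. miR-16-2-3p went from 13.7 and 18.1 CPM in cells to 154 and 155.05 CPM in EVs (3.08 ± 0.17). miR-16-1-3p, the same arm of the other hairpin, fell from 14.7 and 17.1 to 2.13 and 2.21 CPM (-3.06 ± 0.35). The guide miR-16-5p is made by both hairpins. miR-27b split into a 3p arm that rose, as above, and a 5p arm that fell from 1888 and 1748 to 810.5 and 714 CPM. miR-138-5p fell, while miR-138-1-3p rose by 1.25 ± 0.18. let-7a-5p rose, while the opposite arm of 1 of its 3 hairpins, let-7a-2-3p, fell from 80.5 and 163 to 36.8 and 36.0 CPM.

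GC content ran with the change more than length did. Across the 506 miRNAs with a sequence, which are not independent replicates and share the 4 libraries, the change had a rank correlation of -0.372 with GC content and of -0.084 with length. In the lowest GC tertile (15.8% to 40.9%), 82 of 169 were higher in EVs and 18 lower, with a median of 1.03. In the highest (54.5% to 88.9%), 26 of 169 were higher and 66 lower, with a median of -0.41. The same tertiles had medians of 0.05 and -0.04 in the control line, where the correlation with GC was -0.056. It was 0.061 in the RAB27A line. Between lines, the ratio of knockout cells to control cells correlated with GC content at 0.379, that of knockout EVs to control EVs at 0.148 and that of knockout EVs to control cells at 0.025. With the GC correction, 280 of 506 miRNAs passed the test, 135 higher and 145 lower. What part GC content has in the changes was not tested beyond this. The plot of change against GC shows the slope in the knockout line and its near absence in the control line.

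**Figure D4:**
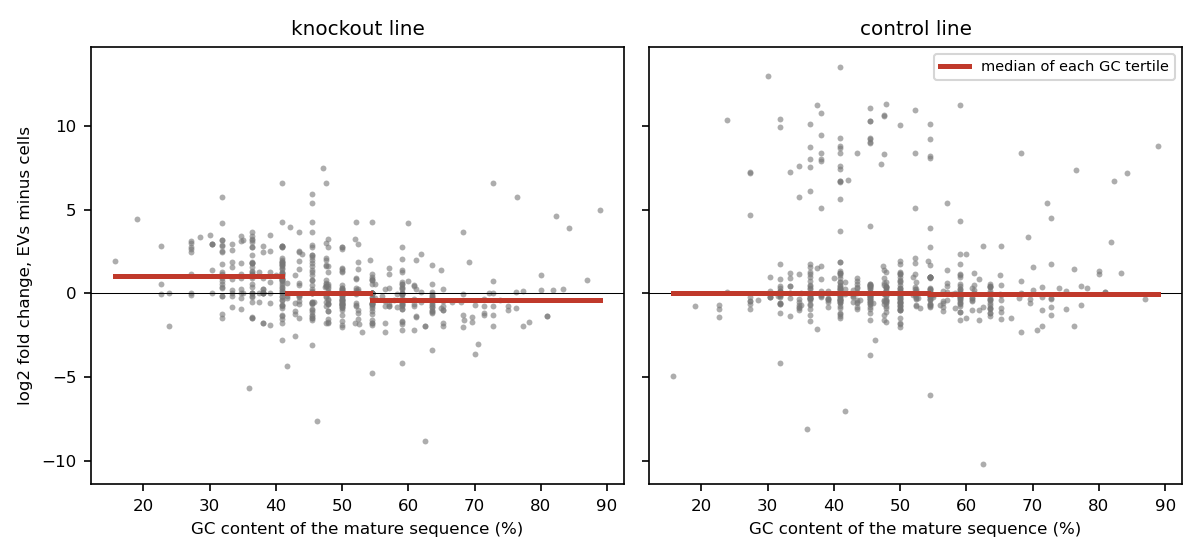
Log2 fold change from cells to EVs (vertical) against GC content in percent (horizontal) for 506 miRNAs with a RefSeq sequence, in the knockout line (left) and the control line (right). Red bars are the medians of GC tertiles, which run from 1.03 to -0.41 in the knockout line and from 0.05 to -0.04 in the control line.

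Motifs were counted as plain letters in the RNA strand of the mature sequence. GGAG was in 47 of the 506, of which 9 were higher in EVs and 17 lower, against 151 and 114 of the 459 without it. It is in 15.7% of the mature sequences of the reference. GGCU was in 62, of which 12 were higher and 23 lower, against 148 and 108 of the 444 without it, and it is in 12.6% of the reference. The median GC content was 55.0% with GGAG and 60.0% with GGCU, against 47.6% and 45.6% without, so motif and GC content moved together. Of miRNAs with a first base of U, 40.5% were higher and 25.6% lower, and of those with a first base of A, 21.1% and 30.3%.

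miRNAs made mainly by other cell types were low in the knockout EVs. The 11 entries of the blood list summed to 170.5 and 168 CPM in knockout cells and 226 and 158 CPM in knockout EVs. Their sum was 10711 CPM in control EVs but 217 CPM in EVs of the RAB27A line, so low values were not particular to the knockout line. In the knockout line 8 of the 10 tested were higher in EVs and 1 lower. After GC correction 3 of the 6 with a sequence were higher and none lower. The one that fell was miR-486-5p, an erythroid miRNA, from 167 and 158 to 148 and 128 CPM (-0.45 ± 0.13). It holds most of the list's sum, and with total counts it did not pass the test (-0.24). miR-144-3p, from the same erythroid locus as miR-451a, had 0 and 9 counts in cells and 38 and 5 in EVs (adjusted p = 0.0359). The call was lost after GC correction (2.26, adjusted p = 0.0595), with DESeq2 (3.47), with no filter (3.15) and without the first EV library (1.61). Without the second cell library the change was 7.89. miR-142-5p, a miRNA of blood cells, rose by 2.61 ± 0.43 (1.52 after GC correction). miR-150-5p, of lymphocytes, had 0 and 1 counts in cells and 12 and 4 in EVs. miR-223-3p, of myeloid cells, had 0 in both cell libraries and 11 and 5 in EVs, at least 15.4-fold higher. The part of blood miRNAs in the differences between lines was not tested.

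The stromal list, of fibroblast and muscle miRNAs, summed to 12.2 and 15.0 CPM in knockout cells and 54.6 and 40.4 CPM in knockout EVs. Its sum was 3891 CPM in control EVs and 113 CPM in EVs of the RAB27A line. Of 8 tested, 4 were higher and none lower. miR-143-3p rose by 1.65 ± 0.25, to 25.04 and 12.3 CPM in EVs, and by 1.07 without the first EV library. miR-199a-3p rose by 1.86, and its counts are those of miR-199b-3p, which has the same sequence. The endothelial miR-126-3p (2.19) and miR-126-5p (2.46) both rose. Of the liver list all 3 tested were higher, with miR-194-5p at 1.27. The imprinted 14q32 cluster was close to 0. As written the list had 9 of 40 higher and 1 lower, but it holds miR-342 and miR-345, which lie outside the imprinted cluster. Without them 9 of 38 were higher and none lower, against 33.3% and 25.8% over all tested miRNAs. The entry that fell was miR-345-5p (-1.13, and -0.70 after GC correction). Only 8 of the 38 exceeded 3 counts in EVs or cells. Some had no count in the 4 knockout libraries and were tested for their counts in other groups. The calls of miR-493-3p, miR-381-3p and miR-432-5p rest on 3 and 0 counts in EVs, and that of miR-487a-3p on 1 and 2, with 0 in cells. miR-411-5p had 0 in both cell libraries and 14 and 2 counts in EVs, at least 15.4-fold higher, and miR-379-5p had 1 and 2 counts in cells and 6 and 5 in EVs. Without the first EV library 3 of the 38 were called, without the first cell library 4 and without the second 5, and miR-411-5p was not (adjusted p = 0.0501). The chromosome 19 primate cluster had none of 11 higher and 3 lower, where 25.8% of all tested miRNAs were lower. Some of its entries have identical counts, and 3 distinct ones of 6 were lower. Its miR-516a-5p went from 469 and 518 to 203 and 206 CPM (-1.47 ± 0.14).

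Some miRNAs were read in 1 compartment only or almost so. miR-7974 had 87 and 105 counts in cells and none in EVs, at least 22.1-fold higher in cells. miR-3916 was at least 9.69-fold and miR-4517 at least 2.42-fold higher in cells. In the other direction, miR-3182 had 1 count in cells and 100 in EVs, a ratio of 289 in CPM (95% counting interval 50.7 to 11529). miR-7641 had 1 and 29 counts, a ratio of 83.8 (13.9 to 3423). These intervals and limits cover counting error only.

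The change from cells to EVs in the knockout line was set against that of the control line, which shares no library with it. In the control line 308 of 574 (53.7%) differed between EVs and cells, 177 higher (30.8%) and 131 lower (22.8%). The fold changes of the 2 lines had a rank correlation of 0.424 across miRNAs. The difference itself was tested as an interaction, and 277 miRNAs (48.3%) passed, 143 (24.9%) with a higher and 134 (23.3%) with a lower value in the knockout line. Of the 191 miRNAs higher in knockout EVs, 86 were also higher in control EVs, 25 were lower there and 80 were not called. All 25 passed the interaction test. It compares the same 2 opposite changes by which they were picked, so this was nearly fixed in advance. Of the 148 lower in knockout EVs, 63 were also lower in control EVs, 17 were higher there and 68 were not called. The 17 also passed, with the same limit. Against the RAB27A line, whose EV libraries are the shallowest of the series, 203 interactions (35.4%) passed, 132 higher (23%) and 71 lower (12.4%). In that line itself 111 miRNAs (19.3%) differed between EVs and cells, 42 higher (7.32%) and 69 lower (12%).

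The largest positive differences were those of hairpin miRNAs that rose in knockout EVs. miR-590-3p (5.21), miR-335-3p (5.09), miR-374b-3p (4.26), miR-454-3p (4.12) and miR-374a-3p (3.80) were the top 5 by interaction among those above the median level. All but miR-374a-3p were among the leading miRNAs. Those were picked for a change that enters the interaction, so its size follows in part from that choice. After GC correction miR-590-3p gave 3.01 and miR-374a-3p 1.92, and both were still called. In the control line miR-454-3p fell from 6306 CPM in cells to 4283 CPM in EVs (-0.70), and the knockout EVs held 3710.0 CPM. miR-335-3p stood at 236 and 83.1 CPM in control cells and EVs, and at 76.1 CPM in knockout EVs. miR-590-3p stood at 114 and 74.3 CPM in control cells and EVs, and at 68.4 CPM in knockout EVs. For each of the 3, the knockout cells were the low group of the 4, at 299, 6.07 and 2.72 CPM. The same order held for miR-20a-5p, at 3923 and 3053 CPM in control cells and EVs, 2107 CPM in knockout EVs and 314 CPM in knockout cells (interaction 3.05). Across 641 miRNAs, knockout EVs correlated with control cells at 0.959 and with their own cells at 0.942 (Pearson, log2 CPM, mean over library pairs). The correlation with their own cells was 0.866 for control EVs and 0.923 for RAB27A EVs. Control EVs correlated with knockout cells at 0.832.

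Among the miRNAs lower in EVs, the difference from the control line was also large. miR-326 rose in control EVs (1.55) and fell in knockout EVs (interaction -5.15), with 3.35 CPM in control cells and 40.5 CPM in knockout cells. miR-193b-3p went the same way (control line 1.13, interaction -3.34), with 16.3 and 97.0 CPM in control and knockout cells. miR-210-3p stood at 282 CPM in control cells and 1411 CPM in knockout cells, while the EVs of the lines held 211 and 154.9 CPM (interaction -2.82). miR-146a-5p followed this pattern, at 4769 CPM in control cells, 24210.4 CPM in knockout cells, 7419 CPM in control EVs and 11568 CPM in knockout EVs. It rose in control EVs (0.50) and fell in knockout EVs. miR-4521 fell in both lines, and more in the control line (-6.10, interaction 1.32). That interaction was lost without the first knockout EV library (0.85) or the second control EV library (0.92). All 12 leading miRNAs lower in EVs passed the interaction test, 11 with a lower value in the knockout line, as did 11 of the 12 leading miRNAs higher in EVs, 7 of them with a higher value. The exception was miR-619-5p (0.44, adjusted p = 0.377). Over all tested miRNAs 48.3% passed. The leading miRNAs were picked for their change in the knockout line, which is part of the interaction. Their counts thus follow in part from that choice. The interaction of miR-769-3p (-1.18) was lost without the first knockout EV library (-0.97) or the first control EV library (-1.07). After GC correction it was lost too (-0.90, adjusted p = 0.103), as were those of miR-7706 (-0.77, adjusted p = 0.177) and miR-210-5p (-1.08, adjusted p = 0.0546), while that of miR-874-3p went from -1.27 to -0.63 and was called. That of miR-7706 (-1.11) was lost without the first (-1.25) or the second (-0.95) control EV library, and that of let-7a-2-3p moved from -1.24 to -0.76 without the second knockout cell library.

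The 5 largest negative differences above the median level were miRNAs of immune cells, of the erythroid lineage and of 14q32. They were far more abundant in control EVs than in knockout EVs. The count filter and this level, taken over the knockout and control libraries, both counted control EVs. The size of these differences thus follows in part from how the miRNAs were picked. EVs of the RAB27A line also lay far below control EVs in the blood list, at a sum of 217 against 10711 CPM. miR-155-5p, a miRNA of activated immune cells, had 0 and 5 counts in knockout cells and 3 and 2 in knockout EVs, but 0 in both control cell libraries and 171 and 178 in control EVs (adjusted p of the interaction = 8.47e-07). miR-409-5p had 2 and 1, then 2 and 2 counts in the knockout line, and 164 and 207 in control EVs (1.46e-05). miR-150-5p had 608 and 699 counts in control EVs (0.00736). miR-144-3p had a mean of 1392 CPM in control EVs and 5.85 CPM in knockout EVs (interaction -9.47). miR-127-3p, of the 14q32 cluster, had 303 and 1.22 CPM (-8.50). miR-451a, leading in the knockout EVs too, had 4484 CPM in control EVs (-8.24). The interactions of miR-155-5p, miR-150-5p and miR-144-3p were lost without the second knockout cell library (each at an adjusted p of 0.9997), and that of miR-144-3p then stood at -5.06. The interaction of miR-127-3p was lost with the libraries thinned to the shallowest (-5.19, adjusted p = 0.9997). miR-10b-5p, described in breast cancer metastasis, rose in knockout EVs by 1.50 and in control EVs by 6.72, to 1186 CPM. Of the entries that overlap other RNAs, miR-4516, miR-4488 and miR-1246 rose more in the control line (7.37, 8.81 and 6.80), and miR-4485-3p rose less (2.37). The interaction of miR-4516 went from -1.63 to -0.99 after GC correction. The plot of the 2 lines separates hairpin miRNAs that rose in knockout EVs and not in control EVs from those that rose far more in control EVs.

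**Figure D5:**
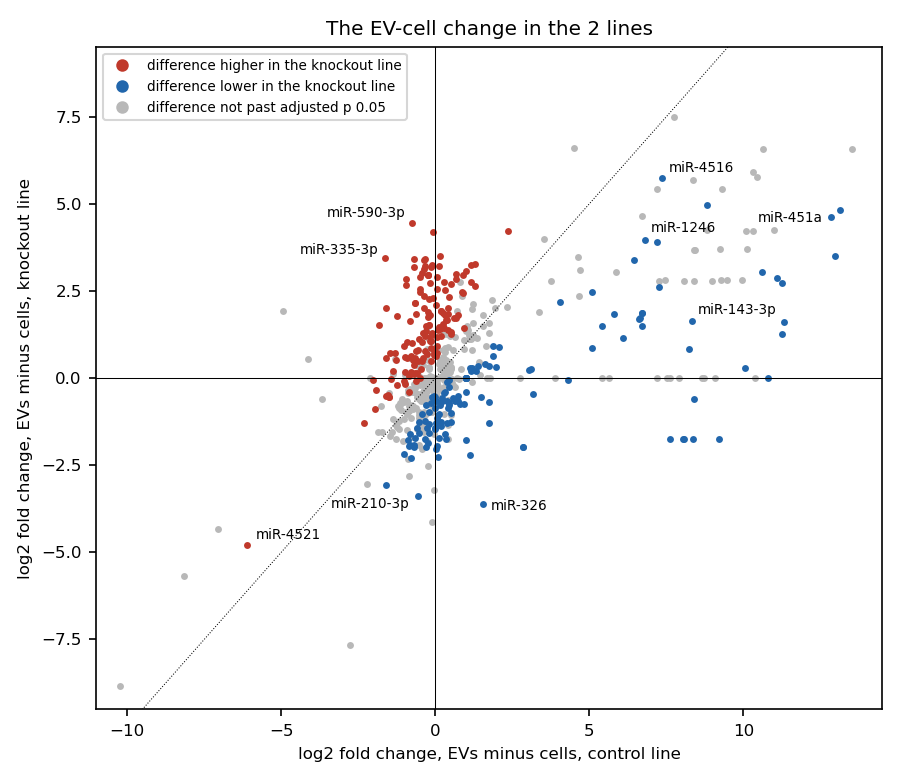
Log2 fold change from cells to EVs in the knockout line (vertical) against that in the control line (horizontal) for 574 tested miRNAs, with the line of equality dotted. Colours mark the test of the difference between lines at adjusted p under 0.05, and points at 0 on the vertical axis include miRNAs with no count in the knockout line. miR-335-3p lies at 3.45 on the vertical and -1.65 on the horizontal axis, miR-451a at 4.61 and 12.85.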

How the data were processed

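Small RNAs of 12 libraries had been read on a Genome Analyzer IIx. Reads had been handled with cutadapt and Bowtie against hg19, per the submitters' processing notes, with versions not given in the sources used here. The deposited table holds raw counts per mature miRNA. The unit is whole-number counts, as the authors deposited them, and libraries were grouped by their labels. miRNAs passing filterByExpr over the 6 groups (574 of 2588) were fitted in all 12 libraries with edgeR 4.0.16 (TMM, robust quasi-likelihood test, R 4.3.3, limma 3.58.1), and called at a Benjamini-Hochberg adjusted p under 0.05. The change from cells to EVs in the knockout line and its difference from each other line were contrasts of that fit. SE is the log2 fold change divided by the square root of F. The scripts were tested on simulated data.

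The members and the 28 miRNA lists were chosen with earlier results of these data known, so list counts are descriptions. Named miRNAs are the 12 leading per direction, the 8 most abundant of EVs and of cells, up to 4 abundant members per list, both miR-122 and miR-3591 arms, the 5 largest interactions per direction, and hairpins with arms called in opposite directions. miR-98-5p, let-7b-5p, miR-19a-3p, miR-16-2-3p, miR-16-1-3p, miR-138-1-3p, miR-223-3p and those read almost only in 1 compartment were named after their values were seen. In 8 sets covering 21 tested entries the counts were identical. Host genes came from GENCODE on GRCh38. Alternatives were RLE and total-count scaling, DESeq2 1.42.0, no filter, thinning, a GC correction, identical entries once, a replicate block, the 4 libraries alone and leaving out each replicate.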

Additional observations from a re-analysis of the deposited data

Results flagged for a closer look

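The change from cells to EVs differed between the knockout and the control line for 277 miRNAs, and between the knockout and the RAB27A line for 203, by a test of the difference itself. Given here, where the test passed, are the leading miRNAs and the 5 largest interactions per direction. Other miRNAs named above were added for calls in opposite directions in the knockout and control lines, which made passing nearly fixed in advance. The change was larger or less negative in the knockout line than in the control line, on the log2 scale, for miR-590-3p (5.21), miR-4485-3p (1.86), miR-374b-3p (4.26), miR-664a-3p (3.35) and miR-335-3p (5.09). The same held for miR-454-3p (4.12), miR-374a-5p (3.75), miR-4521 (1.32), miR-374a-3p (3.80), miR-20a-5p (3.05), miR-15b-5p (1.52) and miR-148a-3p (1.46). It was smaller in the knockout line for the entries over other RNAs miR-4516 (-1.63), miR-4488 (-3.86) and miR-1246 (-2.85), and for the erythroid and 14q32 miRNAs miR-451a (-8.24), miR-144-3p (-9.47), miR-127-3p (-8.50) and miR-486-5p (-3.61). miR-155-5p (adjusted p = 8.47e-07), miR-409-5p (1.46e-05) and miR-150-5p (0.00736) had no count in control cells, so the test's adjusted p stands in place of a value. The change was also lower in the knockout line for miR-326 (-5.15), miR-210-3p (-2.82), miR-138-5p (-1.49), miR-193b-3p (-3.34), miR-769-3p (-1.18), miR-328-3p (-2.05), miR-210-5p (-1.66), miR-874-3p (-1.27), miR-7706 (-1.11), let-7a-2-3p (-1.24), miR-19b-3p (-1.09), miR-146a-5p (-1.77), let-7b-5p (-1.50), miR-181a-5p (-1.05), miR-130b-3p (-1.15) and miR-320a (-1.40).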

How the results depend on the processing

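Leaving out 1 knockout library at a time gave 293 to 331 calls, among them 288 to 316 of the 339, and other settings on the same miRNAs gave 323 to 348. With no filter on low counts, 376 of 1719 passed, of which 231 were lower in EVs against 148. With libraries thinned to the shallowest, interactions with the RAB27A line fell from 203 to 99, 59 higher and 40 lower. With total counts 66.1% of calls were higher in EVs, against 56.3% with TMM, 51.4% with RLE size factors, 38.6% with no filter and 48.2% of 280 with the GC correction. The GC correction turned the sign of 10 calls and the fit with no filter that of 3. The replicate block gave 339 calls, with 8 lost and 8 gained. The labels do not say whether the replicate numbers pair EVs with cells, and the main fit did not pair them. Deviations of same-numbered libraries correlated at -0.065, 0.067 and -0.032 in the control, RAB27A and knockout lines. Counting error weighs on such values, so they cannot show how the libraries were collected. The 4 knockout libraries alone gave 297 calls of 512. miR-221-3p, not called at 0.02, turned to -0.0928 with RLE size factors and with DESeq2, -0.37 with no filter and -0.20 with the GC correction, and ranged from -0.16 to 0.21 where a replicate was left out. For the 84 miRNAs followed through the alternatives, 1053 of 1077 values kept their direction and side of the threshold. All 24 leading miRNAs did so under every setting that gave them a value. Among interactions with the control line, that of miR-4516 was lost by thinning, and those of miR-451a, miR-144-3p, miR-769-3p and miR-7706 with no filter. In the 8 knockout and control libraries alone those of miR-451a and miR-7706 were lost. The cause of these changes was not tested. Depth limits what was seen: 0 counts in the 2 EV libraries allows up to 0.433 CPM.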
